A study of Mus musculus with 6 samples.

Results

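Multiply placed reads are sequencing reads that an aligner found equally well at several places in the genome. They are described here for mouse cells of 2 types, embryonic stem cells (mES) and embryonic fibroblasts (mEF). The members were chosen by their mapping score, as the alignments with a score of 0 or 1, the lowest of the 4 scores in the files, with the mitochondrial chromosome and 5 kb of chromosome 1 around 24.6 Mb left out. A region was 1 distinct combination of chromosome, 5′ position and strand. The members held 13312 of the 75148 regions of the series, with 10040 seen in mES and 4069 in mEF. The score was set by the number of placements, and so the number of copies per read is a description of how the members were chosen. Reads of score 1 had 3 or 4 placements and reads of score 0 had 5 to 20, while reads just outside the limit had a score of 3 and 2 placements. A read with 1 placement had the highest score.

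The mES cells were of the V6.5 line, grown in medium with serum and leukemia inhibitory factor, and the mEF cells came from a commercial stock of embryonic cells (10.5 p.c.) and were grown in the same base medium without that factor or beta-mercaptoethanol. Neither cell type was treated, and no genotype beyond the line and no time point is named in the labels. Both types were dissociated, lysed in drops and labeled by fusion with drops that carried 1 of 1152 barcodes used to prime reverse transcription from poly(A) tails, and the cDNA was sequenced in 6 libraries. The labels of the libraries name both cell types, and the deposited reads were pooled into 1 aggregate per cell type, so no test between cell types was possible and every difference below is between 2 pools. A pool could hold fewer reads of a gene because it held fewer cells or because each cell held less RNA, and counts of reads cannot tell these apart. Ratios are scaled to all reads of each pool, so they compare shares of reads and not amounts of RNA per cell.

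A processed pseudogene is a copy of an mRNA that was reverse transcribed and inserted back into the genome, without introns and usually on another chromosome. Short, abundant mRNAs that are made in every cell, such as those of ribosomal proteins and of glycolytic or translation enzymes, are known for leaving many such copies in the mouse genome. Sequence that is repeated in other ways also gives several placements, for example neighboring duplicated genes, repeats inside 1 gene, and nuclear copies of mitochondrial DNA. A short read from any of these cannot be given to 1 place by its sequence alone.

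The sequences shown first are those where a read crosses an exon junction of a gene that has copies without the intron, as described below. They are coding sequence of GENCODE M21, printed 5′ to 3′ in the direction of the mRNA. Small letters are the end of 1 exon and capitals the start of the next, and in the genome the 2 parts are separated by an intron of 110 nt in Gapdh, between exons 6 and 7, and of 4766 nt in Rps15a, between exons 3 and 4.
Gapdh, coding positions 903 to 962: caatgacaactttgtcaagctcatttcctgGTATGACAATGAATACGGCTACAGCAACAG
Rps15a, coding positions 184 to 243: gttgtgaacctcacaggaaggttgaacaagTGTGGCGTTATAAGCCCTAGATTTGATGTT

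Multiply placed reads made up a similar share of both aggregates. In mES, 18550 of 612194 reads were members (3.03%, exact binomial 95% interval 2.99% to 3.07%), and in mEF 12515 of 387359 (3.23%, 3.18% to 3.29%). These counts include 1035 mES and 1560 mEF reads with 1 placement left, described below, while 17503 mES and 10899 mEF reads had 3 or more left. Intervals cover counting error only, since reads without molecular identifiers are not independent molecules. The read names showed 3 sequencing runs, and the share was 3.16%, 3.22% and 1.98% in runs 1, 2 and 3 of mES and 3.31%, 3.27% and 2.19% in those of mEF. Counted as distinct sets the order of the cell types turned, with 4.26% in mES and 3.75% in mEF. The difference between run 3 and the other runs was larger than that between the cell types, and reads of run 3 were aligned over 45 nt in place of 35 nt; whether the read length accounts for the difference was not tested. Reads with 2 placements were more frequent, at 4.90% of mES and 5.20% of mEF reads, and reads of the highest score made up 92.1% and 91.6%.

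The members gave 100924 placements in mES and 58317 in mEF. The mean was 5.44 placements per read in mES and 4.66 in mEF, and the medians were 4 and 3. These values count 1035 mES and 1560 mEF reads as having 1 placement, because their other placements were left out. This lowers the mean of both cell types, and these reads are a larger part of the mEF members. All of them had score 1, so they also lower the share of score 0 given below, and more so in mEF. Over distinct placement sets the median was 4 in both. Score 0, with 5 or more placements, was given to 40.4% of the mES members (39.7% to 41.1%) and to 32.8% of the mEF members (32.0% to 33.7%). The most frequent number was 3 placements, with 6680 mES and 5212 mEF reads. At the other end, 133 mES reads in 15 sets and 9 mEF reads in 3 sets had 20 placements. The mES reads were in runs 1 and 2 (87 and 46) and all the mEF reads in run 3, so no run held both. As 20 is the most listed for any read, the true number of copies of these reads may be larger.

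**Figure D1:**
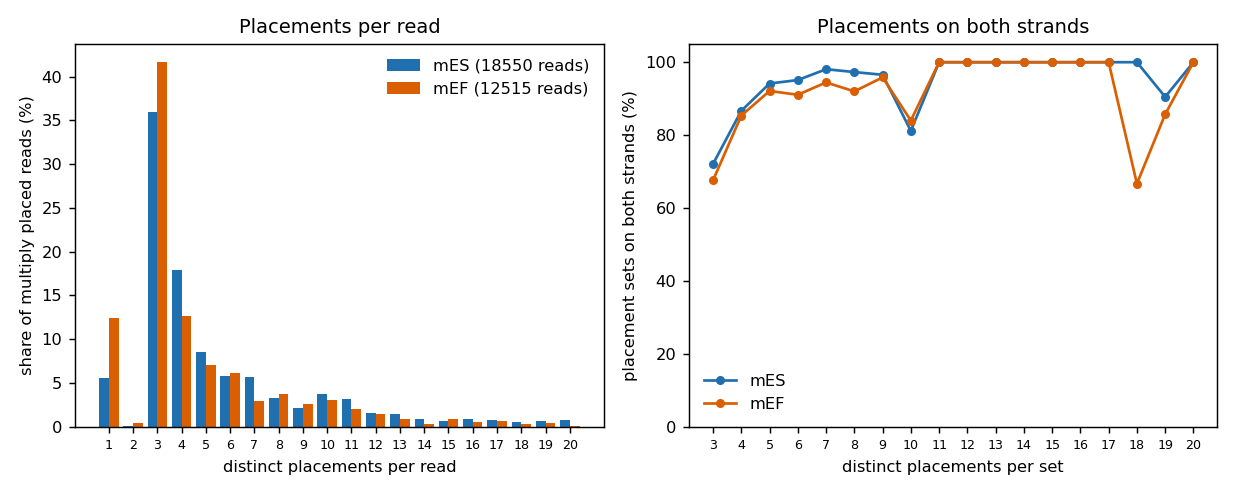
Left, percent of the multiply placed reads of each aggregate (y axis) against the number of distinct placements per read (x axis). Right, percent of placement sets with places on both strands (y axis) against the number of places in the set (x axis), for mES and mEF. In the left panel both peak at 3 placements, and in the right panel the share rises from 72.1% and 67.6% at 3 placements to 94.2% and 92.1% at 5. The bar at 1 placement holds the 1035 mES and 1560 mEF reads whose other placements were on the mitochondrial chromosome or in the part of chromosome 1 left out.

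Many members were copies of the same placement set, a set being all places of 1 read. The 31065 reads held 2442 distinct sets, which is 10.2 reads per set in mES and 16.3 in mEF. For comparison, reads of the highest score held 14.0 and 18.3 reads per distinct position. Of the sets, 835 (34.2%) held 1 read, while the 10 sets with the most reads held 4364 reads (14.0%). Of the 2442 sets, 153 were seen in both cell types. Counts of reads below therefore rest on far fewer distinct fragments. The number of sets is given for part of them, and others also rest on 1 or a few sets.

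The regions recurred between runs 1 and 2 but not between these and run 3. In mES, runs 1 and 2 shared 4730 regions, or 68.7% of run 1 and 85.0% of run 2, and in mEF 1976, or 71.5% and 84.8%. Runs 1 and 3 shared 3.41% and 9.19% of their regions in mES and 1.77% and 4.89% in mEF. Between the cell types 797 regions were shared, or 7.94% of the mES and 19.6% of the mEF list, against 6.36% and 13.2% for regions of the highest score. The labels do not say whether runs 1 and 2 sequenced the same cDNA, so the runs are given side by side and were not treated as replicates.

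Most members had placements on both strands and on several chromosomes. Of the reads with 3 or more placements left, 82.6% in mES (82.0% to 83.1%) and 67.1% in mEF (66.2% to 67.9%) were placed on both strands. Counted over placement sets rather than reads the cell types were closer, at 86.2% and 83.0%. Among sets of 3 placements 72.1% (mES) and 67.6% (mEF) were on both strands, and among sets of 5 placements 94.2% and 92.1%. All placements were on different chromosomes for 43.4% of mES and 38.7% of mEF reads. All were on 1 chromosome for 11.2% (10.7% to 11.7%) of mES and 6.84% (6.37% to 7.33%) of mEF reads.

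The chromosomes were not used in the same proportions as by reads with 1 placement. With each read given a total weight of 1, chromosome 2 held 10.8% of the mES and 17.4% of the mEF members, against 6.74% and 8.05% of the reads of the highest score. Chromosome 12 held 5.79% and 8.79% against 3.12% and 3.48%, and chromosome 13 held 6.39% and 4.27% against 2.44% and 2.26%. Chromosome 11 held 11.6% and 15.1% against 9.57% and 9.83%. Lower shares were seen on chromosome 17, with 4.14% and 3.49% against 11.7% and 6.95%, on chromosome 7, with 3.62% and 4.03% against 7.39% and 7.74%, and on chromosome 10, with 3.06% and 1.77% against 5.55% and 5.11%. The plus strand held 42.6% of the weight in mES and 32.4% in mEF, against 53.2% and 50.2% of the reads of the highest score. Single places with many reads entered these shares, namely the largest family, led by places on chromosomes 11 and 12, and the place on chromosome 2 that was also placed on the mitochondrial chromosome. Both are described below, and the leading set of the first and the second lay on the minus strand.

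**Figure D2:**
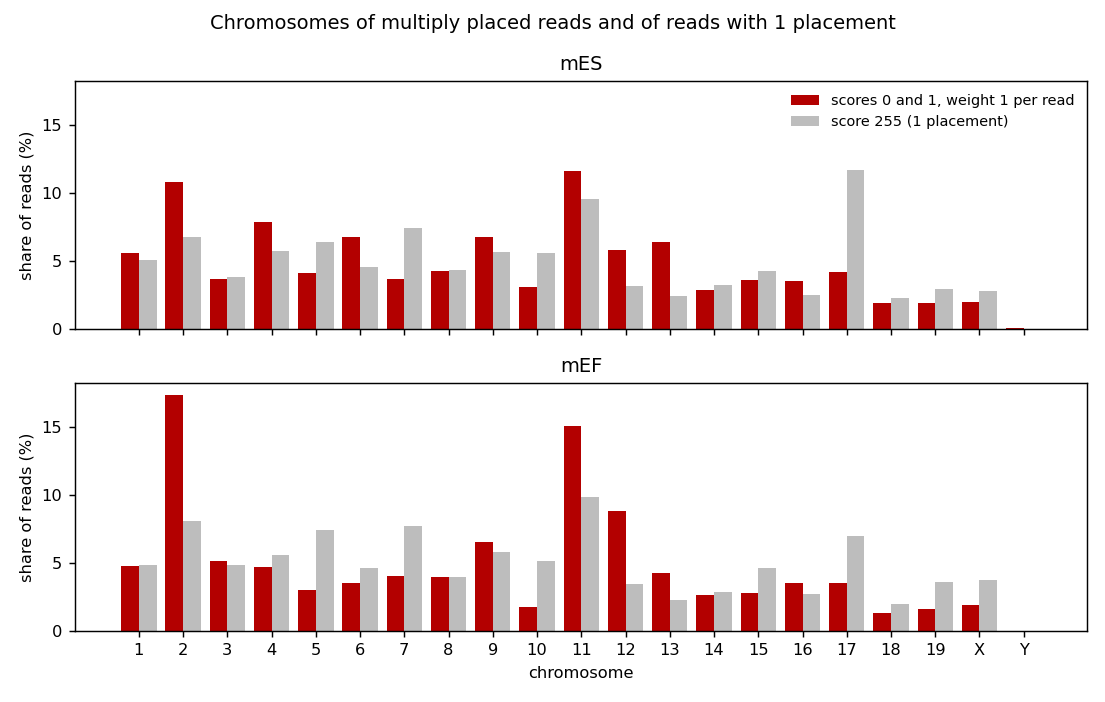
Percent of reads (y axis) on each chromosome (x axis) for members of scores 0 and 1, each weighted to 1 over its placements, and for reads of the highest score, in mES (top) and mEF (bottom). Members lie above the reads with 1 placement on chromosomes 2, 11, 12 and 13 and below them on chromosomes 5, 7, 10 and 17, in both cell types.

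Reads were linked into families where they shared a region, which gave 2213 families, of which 680 held 1 read. Of the 94 families with 50 reads or more over both aggregates, 28 were higher in mES by over 4-fold and 37 in mEF, by reads per 1000000 reads of the aggregate (rpm), with 3 counts (4.90 rpm in mES and 7.74 rpm in mEF) in place of 0. This is 29.8% and 39.4% of them. Among 3453 families made the same way from reads of every score, 35.3% were higher in mES by over 4-fold and 42.5% in mEF, so the members were called no more often than the rest of the series. Of the 65 called families, 55 rested on 1 placement set and 52 of their 5063 reads came from run 3. Of the 94 families, 25 (26.6%) had no read in mEF and 27 (28.7%) had none in mES, against 32.2% and 37.1% of the 3453.

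The largest family held 2938 reads, or 9.46% of all members, with 910 in mES (1486 rpm) and 2028 in mEF (5235 rpm). It was led by 1 set of 3 places on the minus strand, at chr11:23548416, chr11:102481216 and chr12:77434479, with 2530 reads. This set held 449, 202 and 0 reads in runs 1, 2 and 3 of mES and 1310, 569 and 0 in those of mEF, a log2 ratio of mES over mEF of -2.19. All its placements were on 1 strand, unlike most sets. A second set of the family, at chr9:108306048, chr11:53415368 and chr11:76228114, went the other way, with 258 mES and 140 mEF reads and a log2 ratio of 0.22. No gene could be given to either set.

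Of the other families with many reads, several had a placement at a ribosomal protein gene, with genes named as described further below. The family of chr3:37613979 held 287 reads, 69 in mES and 218 in mEF (log2 ratio -2.32), with 3 to 7 placements that included Rps23 on chromosome 13. Families at chr4:33051754 and 1 base downstream, both with 4 placements that included Rplp1, an acidic protein of the ribosomal stalk, held 211 reads (105 in mES, 106 in mEF) and 171 reads (114 and 57). The family at chr2:153444153 held 241 reads (211 in mES, 30 in mEF) with 7 to 19 placements, on 17 chromosomes, 1 of them at Sap18, a subunit of a histone deacetylase complex. The family at chr6:47605093 held 187 reads (130 in mES, 57 in mEF) at 10 or more places, and the family at chr4:107900551 held 184 reads (108 and 76) at 3 to 14.

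The families with the largest ratio were each seen in 1 cell type, in 1 to 4 placement sets. Toward mES they were at chr1:182257336 and chr6:125112067, both with a placement at Gapdh, with 125 and 90 mES reads and none in mEF, followed by chr4:81748504 with 89, chr3:102870621 with 83 and chr7:5360879 with 74. Toward mEF they were at chr2:22443756 with 174 mEF reads and none in mES, chr2:90871012 with 122, chr3:37614001, with a placement at Rps23, with 119, chr2:175108907 with 81 and chr3:63820567, at Gmps, with 74. In run 3 the families with the most reads were at chr6:3151524 and 1 base upstream, with 30 and 29 mES reads, and at chr10:75924002 with 23 mEF reads, and none of the 3 held a read of run 1 or 2.

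Genes could be named for part of the members without coordinates of another build, in 2 ways. In the first, sets of 6 or more placements on at least 4 chromosomes were matched to M21 loci that share a word of the read length on the same chromosomes and strands. Of 811 such sets, 108 (13.3%) with 1750 reads were matched to 1 group of loci, against 2 sets with 32 reads when every strand was reversed. In the second, a gene was named where at least 2 of its intron lengths were seen as gaps within 10 kb of a region on the same strand. This named 458 regions (3.44%) and 94 genes, against 64 regions and 2 genes with the introns of the opposite strand. For the 30 genes that could be named in both ways the names were the same. In all, 7714 members (24.8%) had a placement at 1 gene named by introns, 4269 in mES (23.0%) and 3445 in mEF (27.5%), and 23330 had none.

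The matched loci were mostly processed pseudogenes of ribosomal protein genes. Of 917 matched placements 698 (76.1%) were at a locus that M21 lists only as a pseudogene, and of 485 distinct loci 374 were of this kind, 360 of them processed pseudogenes. Genes of the small subunit gave 853 of the 1750 reads (48.7%; 13 genes and 34 sets), and genes of the large subunit gave 718 (41.0%; 19 genes and 49 sets). The small subunit sets held 165 mES and 688 mEF reads, or 270 and 1776 rpm, and the large subunit sets 318 and 400 reads, or 519 and 1033 rpm. Other single genes gave 138 reads, 114 of them in mES. Of 298 pseudogene places, 37 (12.4%) held a read of the highest score within their extent, and these were 607 of the 20408 reads there (2.97%). Rps15a-ps4, a pseudogene of Rps15a at chr4:131776005-131776384, held the most, with 152 of its 643 reads. At the 33 parent genes with introns seen, 77.03% of 48834 reads had the highest score. These shares are a description, since the pseudogene places were found through reads with 6 or more placements, many of them at 1 position, and the parent genes through spliced reads.

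By introns, members fell on 22 genes of the small subunit with 2550 reads (1007 in mES, 1543 in mEF, or 1645 and 3983 rpm), on 34 genes of the large subunit with 1959 reads (979 and 980, or 1599 and 2530 rpm) and on 38 other genes with 3205 reads (2283 and 922, or 3729 and 2380 rpm). Of the 29 genes with 50 reads or more, 4 were higher in mES by over 4-fold and 9 in mEF. Among 225 genes named the same way with reads of every score, 13.8% were higher in mES by that much and 9.33% in mEF. Of the 13 genes called, 10 had 5 or fewer placement sets in each cell type, Gapdh, Rps27 and Rpl31 being the others. A name says only that a placement of the read lay within 10 kb of gaps with that gene's intron lengths. It does not say that the placement was inside the gene or that the read came from it. A placement at a gene is meant in this sense.

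In the small subunit, Rps23 led with 745 reads in 25 sets. In mES its reads were 144, 76 and 4 in runs 1 to 3, and in mEF 354, 153 and 14, which gave 366 and 1345 rpm and a log2 ratio of -1.88. Rps27 had 62, 25 and 0 reads in mES and 214, 107 and 2 in mEF, a log2 ratio of -2.55, with 2 sets in mES and 13 in mEF. Rps15a had 89, 42 and 0 reads in mES and 130, 76 and 6 in mEF (log2 ratio -1.35). In runs 1 and 2 each of these 3 genes held more reads in mEF, although mES was the larger aggregate. Rps18 went the other way, with 116 mES and 34 mEF reads (log2 ratio 1.11), and Rps3 held 121 and 114 rpm (log2 ratio 0.09).

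In the large subunit, Rplp1 had 222, 87 and 1 reads in mES and 195, 82 and 0 in mEF, with 8 sets in each and a log2 ratio of -0.50. Rpl31 had 38 reads in mES and 122 in mEF (log2 ratio -2.34), Rpl36a 35 and 107 (-2.27), Rplp2 15 and 65 (-2.78) and Rpl12 21 and 57 (-2.10), and these 4 were over 4-fold higher in mEF. Their sets in mES and mEF were 5 and 7 at Rpl31, 2 and 5 at Rpl36a, 2 and 2 at Rplp2, and 1 and 2 at Rpl12. Rpl35 had 54 and 6 reads (log2 ratio 2.51). Rpl10 had 57 mES reads and Rpl23 had 56 at their named regions, with none there in mEF, and the wider stretch around Rpl10 used below held 5 mEF members. These 3 were over 4-fold higher in mES, where Rpl35 held 4 sets, Rpl10 held 3 and Rpl23 held 5. The large subunit genes thus held both directions, with Rpl27a (48 and 35 reads, log2 ratio -0.20) between them.

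Of the other genes, Gapdh, the glycolytic enzyme glyceraldehyde-3-phosphate dehydrogenase, held the most members of any named gene. In mES it had 762, 393 and 17 reads in runs 1 to 3, in 54 sets, and in mEF 113, 47 and 7, in 17 sets. These were 1914 and 431 rpm, a log2 ratio of 2.15, with mES higher in runs 1 and 2 and mEF higher per read sequenced in run 3. Eef1a1, which carries tRNA to the ribosome, had 583 mES reads in 36 sets and 401 mEF reads in 27 sets, or 952 and 1035 rpm (log2 ratio -0.12). Sap18 had 235 and 49 reads (log2 ratio 1.60). Elob, a subunit of the elongin complex, Gmps, which makes guanosine monophosphate, and Cox6c, a subunit of cytochrome c oxidase, had 74, 74 and 72 reads, all in mEF and each from 1 or 2 sets. Of a list of 20 abundant housekeeping genes 7 were found, with 2391 reads. Beside Gapdh and Eef1a1 these were Npm1 with 22 reads, Tpt1 with 18, H3f3a with 14, Ppia with 12 and Hspa8 with 2. The remaining 13, Actb and Fth1 among them, were not named at any region by this rule, which does not show that they had no multiply placed reads.

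**Figure D3:**
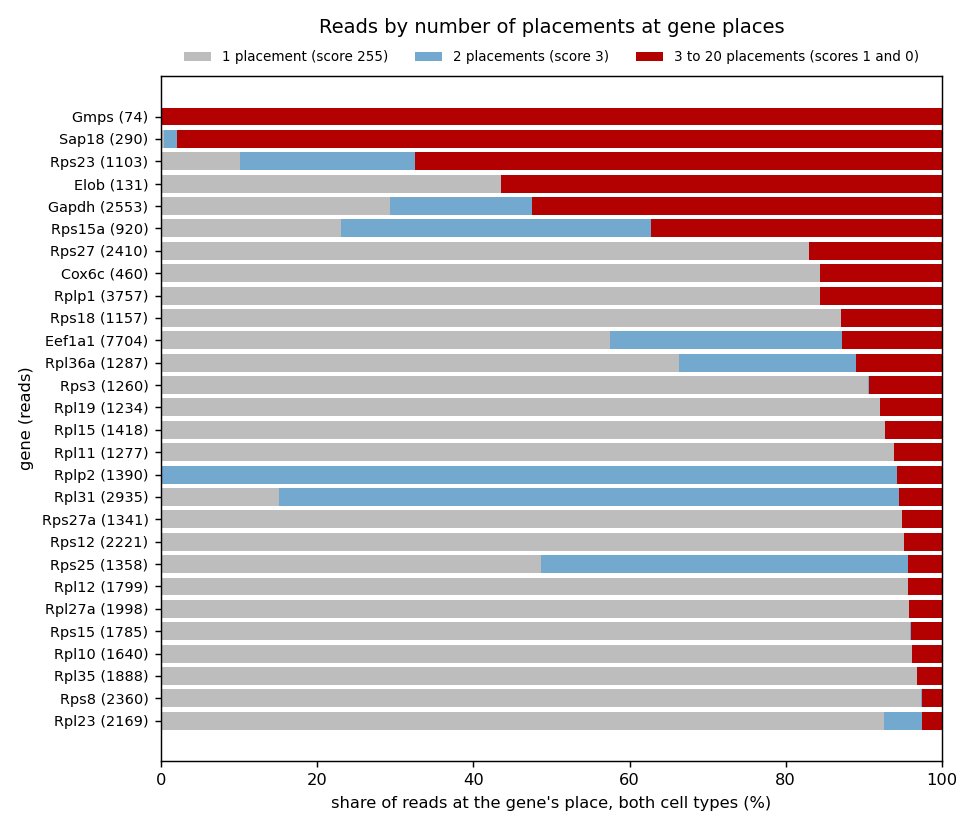
Percent of the reads of both cell types in the stretch around the named regions of each gene (x axis) that had 1 placement, 2 placements or a score of 0 or 1, for 28 genes with 50 or more multiply placed reads (rows, with the number of reads in brackets). Most of the reads at Rps23 and Gapdh lie in the part of scores 0 and 1 and most of those at Rpl31 and Rplp2 in the part with 2 placements, while most other ribosomal protein genes lie in the part with 1.

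The number of placements of the reads at a named gene is given for the stretch around its named regions, in which 5′ ends were at most 500 nt apart. This stretch holds members by its choice and can be far shorter than the gene, so the shares are a description of the stretch and not of the gene. Over the 94 genes, 123295 reads of any score lay in these stretches, of which 82.2% had the highest score, 11.5% had 2 placements and 6.30% were members. At Gapdh 52.4% of 2553 reads were members and 29.3% had the highest score. At Rps23 67.5% were members and 10.1% had the highest score, and at Rps15a 37.3% and 23.0%. Eef1a1 held 12.8% members but 29.8% with 2 placements, and Rpl31 5.45% and 79.5%. None of the 1390 reads at Rplp2 had the highest score, and 94.2% had 2 placements. At Sap18 97.9% of 290 reads were members and at Elob 56.5% of 131. At Rps12, Rpl15, Rpl19 and Rpl12, which also had matched pseudogenes, members made up 4.91%, 7.26%, 7.94% and 4.34%.

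The share of members in mES and in mEF was further apart at some genes than at others, with intervals that cover counting error only. At Rps23 it was 51.3% (46.5% to 56.0%) and 78.2% (74.9% to 81.3%), with members in 15 and 14 sets. At Rps27 it was 8.20% (6.62% to 10.0%) and 23.9% (21.7% to 26.3%), with members in 2 and 13 sets. At Gapdh, 53.1% (51.0% to 55.2%) and 48.3% (42.9% to 53.7%), and at Eef1a1, 13.0% (11.99% to 14.0%) and 12.5% (11.4% to 13.7%), the intervals overlapped.

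The direction between cell types was not always that of reads with 1 placement in the same stretch. Of the 26 genes with 50 or more reads of each kind, 19 were higher in mEF by members and 12 by reads of the highest score, and 9 had opposite directions. The median log2 ratio was -1.41 by members and 0.04 by reads of the highest score, and 18 genes were more than 2-fold apart. The exact intervals of the 2 ratios did not overlap for 20 genes, with the members lower in 15 and higher in 5, and overlapped for 6. Rps23 had 104 mES and 7 mEF reads of the highest score (log2 ratio 3.23, interval 2.14 to 4.58), against -1.88 (-2.11 to -1.65) by members, and -1.27 when reads of every score were counted. Rpl31 had 355 and 86 (log2 ratio 1.39), against -2.34 and 0.02. Gapdh had log2 ratios of 2.21 and 2.15 by the 2 kinds, and the intervals overlapped. These intervals treat reads as independent, while several of the ratios rest on 1 to 3 placement sets per cell type. The same counts were not made between other kinds of reads. They are therefore a description and do not show that members differ more than other kinds would.

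Summed over the stretches of the 56 ribosomal protein genes, reads of the highest score were at 69731 rpm in mES and 72238 rpm in mEF (log2 ratio -0.05), while members were at 3296 and 6526 rpm (log2 ratio -0.99). Members were 4.07% of the reads at these genes in mES and 7.52% in mEF. Over the other 38 genes the log2 ratios were 0.71 and 0.65, and members were 7.99% and 8.13% of the reads.

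**Figure D4:**
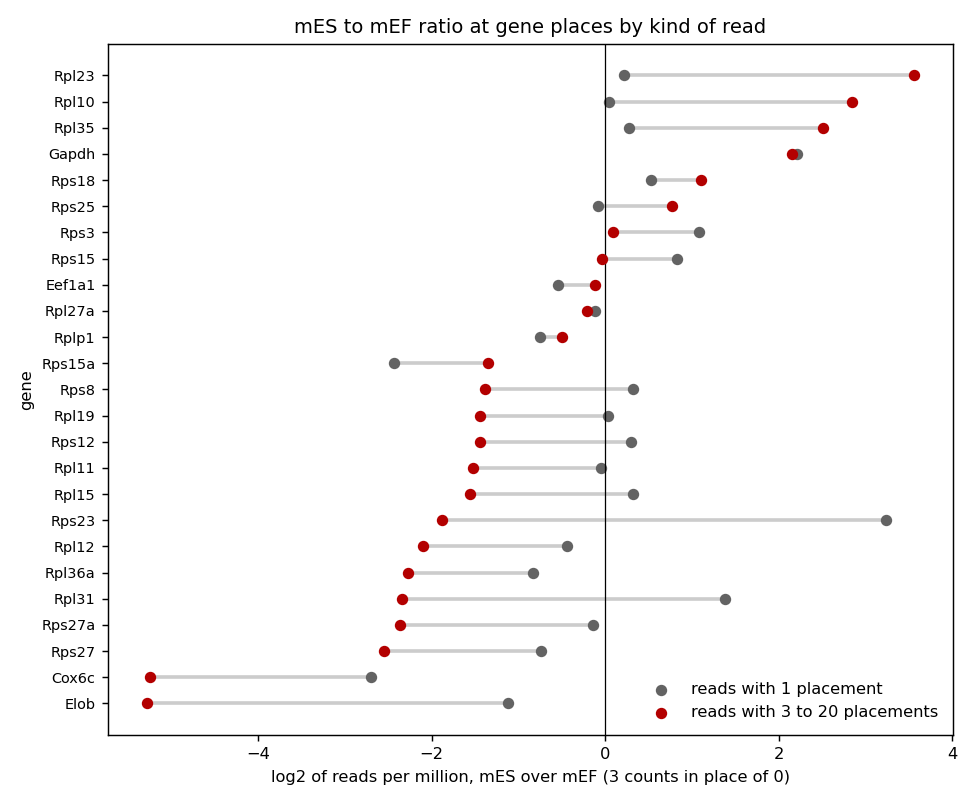
Log2 ratio of mES over mEF in rpm (x axis) for multiply placed reads and for reads with 1 placement, joined by a line, at 25 genes with 50 or more reads of each kind (rows). The points of Gapdh lie together at 2.15 and 2.21, and those of Rps23 and Rpl31 lie on opposite sides of 0. Where a cell type had no read, 3 counts were used.

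Spliced placements were rare among the members. A placement was spliced where it spanned at least 50 nt more than the read. Of the mES members 0.739% had such a placement (0.620% to 0.872%), and of the mEF members 1.33% (1.14% to 1.55%). Of the 167 mEF reads counted here, 81 were of 1 set, described below. Over distinct sets the shares were 0.493% of 1826 in mES and 0.910% of 769 in mEF. By comparison, 5.82% and 6.29% of reads of the highest score had a spliced placement, and 9.96% and 11.8% of reads with 2 placements. In run 3 the order of the cell types turned among the members, with 0.403% in mES and 0.190% in mEF. This rests on only 6 of 1490 mES reads and 1 of 526 mEF reads. In all, 1053 of 159241 placements (0.661%) held a gap, with 13 distinct gaps of 110 to 4766 nt. Each had the length of an intron in M21 on the same chromosome and strand. A single length is weak evidence, since of 1729 distinct gaps in reads of the highest score 1724 had such a length on the same strand and 1283 also did on the opposite strand.

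Most reads with a spliced placement were also placed without a gap somewhere else, as 130 mES and 86 mEF reads were. At Rps15a on chromosome 7, 93 reads in 4 sets (22 in mES, 71 in mEF) crossed the intron of 4766 nt printed above, and all were also placed without it, among them at Rps15a-ps4 on chromosome 4. At Gapdh, 76 reads in 3 sets crossed the intron of 110 nt, all in mES and all with places without a gap on chromosomes 1 and 11. At Rps23, 41 reads (27 in mES, 14 in mEF) crossed an intron of 387 nt and 5 an intron of 579 nt. The largest families of this kind were at chr3:37613644 (Rps23, 47 reads), chr1:182257404 and chr1:182257393 (Gapdh, 46 and 26 reads, all mES) and chr4:131776171 and chr4:131776141 (Rps15a, 32 mEF and 22 mES reads).

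The reads whose placements were all spliced were of another kind. In mEF, 81 reads of 1 set were placed at 10 places of chromosome 2, from chr2:175108907 to chr2:177766068, each with a gap of 205, 206 or 208 nt. Several M21 genes of chromosome 2 have introns of these lengths, zinc finger genes such as Zfp970 and Zfp965 among them, and no single gene could be named. In mES, 6 reads with 4 placements on chromosome 4 had gaps of 3008 and 3010 nt, the second of which is the length of an intron of Zfp600.

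Reads with all placements on 1 chromosome formed 236 sets with 2703 reads, 1958 in mES (3198 rpm) and 745 in mEF (1923 rpm). Of the sets, 141 with 1500 reads were on both strands, and 25 with 329 reads lay within 5 kb. The distances between placements matched those between identical stretches of M21 transcripts for 39 sets with 666 reads, against 3 sets with the strands reversed. The 3 neighboring alpha-tubulin genes Tuba1a, Tuba1b and Tuba1c (chr15:98762107-98868352) gave 302 reads in 13 sets, with 133, 54 and 0 in runs 1 to 3 of mES and 76, 39 and 0 in those of mEF, or 305 and 297 rpm. Smaller groups of neighboring genes went in both directions. Duxbl1, Duxbl2 and Duxbl3 on chromosome 14 had 33 reads and Phf11a, Phf11c and Phf11d had 22, all in mEF, while the pseudogenes Gm19013, Gm19014 and Gm19015, beside the Duxbl genes, had 33 reads, all in mES, and Srp54a, Srp54b and Srp54c on chromosome 12 had 1 mES and 14 mEF reads.

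Repeats inside 1 gene were also seen. Ahnak, a very large protein with internal repeats, gave 25 mEF reads at 4 places 201 nt apart (chr19:9081691-9082294). Trub2 gave 20 mES reads at places 39 nt apart at the closest, and Serpine2 13 mEF reads at places 16 nt apart.

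Other places on 1 chromosome held more reads and could not be named. At chr4:145017586-148990972, 323 reads in 48 sets were 109, 51 and 128 in runs 1 to 3 of mES and 19, 7 and 9 in those of mEF, or 470 and 90.4 rpm. Run 3 held more of the mES reads here than run 1, as it did at the place on chromosome 2. At chr6:47602282-47725370, 302 reads (228 in mES, 74 in mEF) in 15 sets had 10 to 18 placements, all on 1 strand. At chr2:174889156-177769518, 173 reads were nearly equal in number (91 in mES, with 18, 14 and 59 in runs 1 to 3, and 82 in mEF), and at chr13:65414114-66950484 all 133 reads were in mES.

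**Figure D5:**
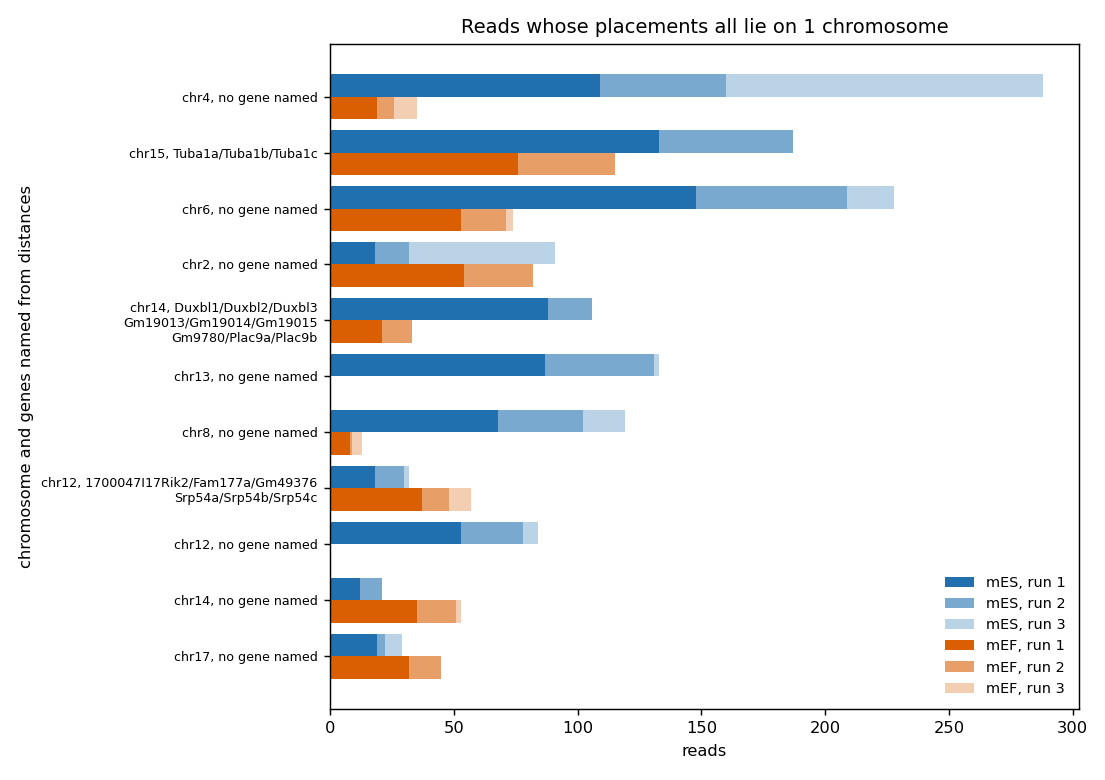
Number of reads (x axis) in mES and mEF, split by sequencing run, at 11 of the places with the most reads whose placements all lay on 1 chromosome (rows, with the chromosome and any genes named from distances). Run 3 is the longest part of the mES bar at the unnamed places on chromosomes 4 and 2, and the unnamed place on chromosome 13 has no mEF bar.

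A last group had a single placement left, because their other placements were among those left out. These were 1035 reads in mES and 1560 in mEF, and 982 and 1559 of them lay at chr2:22442862-22444095 on the minus strand, a stretch of 1234 nt with 95 distinct positions. All of these reads were also placed on the mitochondrial chromosome and in the part of chromosome 1 left out. They were 645, 328 and 9 reads in runs 1 to 3 of mES and 1084, 465 and 10 in those of mEF, or 1604 and 4025 rpm. The 71 positions seen in mES and the 59 in mEF differed in weight. At chr2:22443787 there were 60 mES and 123 mEF reads, at chr2:22443628 there were 37 and 128, and at chr2:22443756 there were 174 mEF reads and none in mES. A second place of 9 nt, at chr11:90400163-90400171, held 32 mES reads and 1 mEF read.

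The cell types of the aggregates were checked with marker genes, from reads of every score at genes named by introns. Of 12 fibroblast markers 5 were named with 50 reads or more (Tagln, Vim, Acta2, Sparc and Lgals1), and all 5 were higher in mEF, with log2 ratios of mES over mEF from -2.26 to -3.13. None of 9 pluripotency markers was named with 50 reads, so the mES label was not checked by a gene of its own. Vim and Acta2 also had members, 35 and 27 reads, all of them in mES and in 3 and 2 sets.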

How the data were processed

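Hi-SCL cDNA of mES and mEF cells was sequenced in 6 libraries, whose labels name both cell types, so the libraries formed 1 group. The source label is the same for all libraries and does not say whether each held both types. The submitters' processing notes name TopHat, with no version, and the mm9 build. The deposited alignments of each cell type, pooled by the authors over barcodes, hold 1 line per placement with its span, strand, read name and score; the aligner set this score by the number of places. The files hold no counts per gene. The read names carry no barcode, so cells, and barcodes shared by libraries, were not analysed here, and the deposited barcode list was not used. How the authors gave barcodes to cell types is not stated for these files.

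Depth was 612194 reads (750739 records) in mES and 387359 reads (459005 records) in mEF, so 3 counts correspond to 4.90 and 7.74 rpm. Records listed more than once for a read at 1 region were counted once. Positions are 5′ ends, counted from 1. Placements on the mitochondrial chromosome and 5 kb of chromosome 1 around 24.6 Mb were left out. A placement was spliced where its span exceeded the most frequent span of its run (35 or 45 nt) by at least 50 nt. Families with 50 reads or more were called over 4-fold, with 3 counts in place of 0. Families were named by the region with most of their reads: the 10 with the most reads, the 5 with the largest ratio of rpm + 1 in each direction, the 5 with the most reads among those both spliced and unspliced, and the 3 with the most reads in run 3. Exact binomial intervals are at 95%. With 1 pool per cell type no test was made.

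The reference used here was GENCODE M21 on GRCm38, another build than that of the files. No coordinate was taken from it or converted, and genes planned to be named by coordinates were named, by rules chosen after the data were seen, from shared words of 35 or 45 nt on the same chromosomes and strands (at least 6 loci on 4 chromosomes, covering 75% of the placements, with 1 best group), from intron lengths within 10 kb (at least 2, all lengths seen belonging to 1 gene) and, on 1 chromosome, from distances between placements. Repeat annotation of mm9 was not used here, so repeats were described by their placements only. The members and lists were chosen with earlier results of these data known. The alternatives were other units, score limits, spans, minimum reads, folds, scalings and runs. The linking into families, the counting of placements and the calls over 4-fold were checked on simulated data. The steps that named genes were not simulated. Python 3.11.15, numpy 2.4.6, pandas 2.3.3, scipy 1.17.1 and matplotlib 3.10.9 were used. Of the named families and genes, 2 genes with their values and some sequences are not reported here.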

Additional observations from a re-analysis of the deposited data

How the results depend on the processing

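Of 93 values under alternative settings 40 moved by less than counting error or by less than 1.5 times and 53 moved by more. The order of the cell types turned for the share of members over sets and with score 0 only, for spliced placements and reads per set in run 3, for the number of families over 4-fold with at least 10 reads, and for genes over 4-fold in run 2. The cause of each move was not tested unless the setting itself changes what is counted. As a share of all distinct placement sets or positions, members were 4.26% in mES and 3.75% in mEF. By reads they were 1.22% and 1.06% with score 0 only, 1.81% and 2.17% with score 1 only, and 7.93% and 8.43% with every score under the highest. In single runs they were 3.16%, 3.22% and 1.98% in mES, and 3.31% in run 1 and 2.19% in run 3 of mEF. The median number of copies was 5 in mES and 4 in mEF in run 3, and 4 in mEF over sets. The share on both strands was 86.2% (mES) and 83.0% (mEF) over sets, 86.1% and 81.4% in run 3, and 66.0% in run 1 of mEF. The plus strand held 46.6% and 40.2% when each placement counted 1, and 48.9% and 42.6% over sets. Spliced placements were seen in 0.156% and 0.567% of reads with a limit of 1000 nt, in 0.493% and 0.910% of sets, and in 0.403% and 0.190% of run 3 reads. Reads per set were 5.28 and 8.17 in run 2 and 3.54 and 3.21 in run 3.

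Families over 4-fold numbered 0 in each direction when sets in place of reads were counted, among the 10 families with at least 5 sets. They were 265 in mES and 242 in mEF of 838 with at least 10 reads, 1 and 1 of 4 with at least 200 reads, 8 and 11 of 40 in run 1, and 1 and 1 of 7 in run 2. In run 3 no family reached 50 reads, so no value was given. Regions shared between cell types were 2.31% of the mES and 5.89% of the mEF list in run 3. Matching with 5 loci and 50% of the placements gave 222 sets, against 108 with every strand reversed. Genes over 4-fold were 1 and 5 of 20 in run 1 and 2 and 1 of 9 in run 2, and 17 genes were over 2-fold higher in mEF. No paired analysis was possible because each cell type is 1 pool and the libraries form 1 group. Depth limits the ratios of families with few reads, and the number of distinct sets limits them further.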
